A study of Homo sapiens with 12 samples.

Results

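The 247 genes described here carry a ZNF symbol, the letters ZNF with a number and sometimes a last letter, and were detected on every one of the 12 arrays of the study. The array's symbols name 483 such genes, so 51.1% of them are members, and each gene is read through its brightest probe with a detection p-value under 0.05 on all arrays. ZNF is a naming root for proteins that hold zinc fingers, loops folded around a zinc ion, and it says nothing on its own about what a protein does. The members were chosen by their detection p-values and, among the probes of a gene, by mean signal, so their presence is a description and carries no test.

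The cells were LNCaP, an established line of human prostate cancer with a mutant androgen receptor, kept without steroids and then treated for 48 hours. The 4 groups of 3 arrays each received vehicle (ethanol and DMSO), R1881 at 10 nM, Torin 1 at 100 nM, or Torin 1 and R1881 together. R1881 is a synthetic androgen, and Torin 1 inhibits the kinase mTOR, which drives protein synthesis and growth. All groups share the steroid-free medium and a single cell line, and the labels do not say whether the 3 samples of a group came from separate cultures, so p-values measure the spread between these samples.

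Most ZNF proteins with many fingers of the C2H2 kind bind DNA, and a large share of the human ones begin with a KRAB box that recruits TRIM28, a scaffold for histone methylation and gene silencing. Many KRAB genes lie in tandem clusters on chromosome 19 that grew by gene duplication, and several silence transposable elements. Others with the ZNF name lack a KRAB box and act as activators, as chromatin proteins, in RNA handling or in making ribosomes.

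Levels below are normalized log2 signals, on which 1 unit is a doubling of signal, and a level of one gene cannot be set against that of another because each probe has its own brightness. The median member stood at a level of 6.47, below the median of 7.44 for the 8351 genes detected on all 12 arrays. ZNF674 had the brightest member probe, with a mean level of 12.39, followed by ZNF430 at 10.60, ZNF876P at 10.33, ZNF358 at 10.05 and ZNF549 at 9.95. ZNF205 had the dimmest at 5.05, near ZNF436 at 5.07, ZNF324B at 5.09, and ZNF234 and ZNF345, both at 5.12. The spread between the 3 arrays of a group was small, with a median SD of 0.109 over the members and 0.108 over all 11517 genes tested.

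The detection threshold ran through a continuous range of signals. Just inside it lay ZNF589, ZNF28 and ZNF184, whose weakest arrays had detection p-values of 0.0403, 0.0416 and 0.0442. Just outside lay ZNF655, ZNF286A and ZNF605, with 0.0532, 0.0545 and 0.0571 on their weakest array and detection on 11 arrays. Of the other ZNF genes, 95 were detected on 3 to 11 arrays, 141 on fewer, and 103 of those on none. A gene that a treatment took below background could not be a member. ZNF704, for example, was detected on all 9 arrays of the other groups and on 0 of the 3 arrays with R1881 alone. Of the 95, 47 were detected on all 3 vehicle arrays, 21 on all 3 with R1881, 48 with Torin 1 and 31 with both agents. Over all probes, 17683 to 18868 were detected per vehicle array and 16837 to 17829 per R1881 array. The ranges were 17012 to 18681 with Torin 1 and 16681 to 17195 with both agents. Such a count by group was not made over all genes, so it describes only the 95.

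Of 9 luminal prostate markers 7 were measured and 6 of them were detected on all arrays, while the basal markers KRT5 and KRT14 were detected on 0 arrays. The immune markers CD3E, PTPRC and MS4A1 were detected on 0, 3 and 2 arrays, CD68 on 12. Of 6 stromal markers, ACTA2, VIM and TAGLN were detected on all 12 arrays, and COL1A1, COL1A2 and DCN on 3, 1 and 1. The mean levels of ACTA2 were 7.54 with vehicle, 8.49 with R1881, 8.70 with Torin 1 and 7.36 with both. All samples were of a single cell line, and a link of these marker levels to the ZNF changes was not tested. The androgen-induced genes TMPRSS2 and FKBP5 rose by 3.80 and 3.99 on the log2 scale with R1881, and the mitotic gene CDC20 fell by 4.53 with Torin 1. In bulk RNA, fewer cells of a kind and less RNA per cell cannot be told apart. Between 16681 and 18868 probes were detected per array, and with 3 arrays a group their number limits the precision.

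R1881 lowered more members than it raised. Against vehicle, 62 of 247 members fell and 14 rose at a limma adjusted p under 0.05, beside 21.5% lower and 15.8% higher over all genes tested, and 23.4% and 18.8% over the genes detected on all arrays. The share that fell (25.1%) was thus near that of all genes, and the share that rose (5.67%) was below it. The median change of the members was -0.10, beside -0.03 over all genes. Above 0 lay 79 of the 247 members, beside 5231 of the 11517 genes tested. The 3 R1881 arrays lay wholly below the 3 vehicle arrays for 80 of the 247 members, beside 26.9% of all genes tested. They lay wholly above for 27 of the 247, beside 20.6%. Leaving out replicate 3 of R1881 gave 9 members called higher. Scaling each array by its median over all probes, which set the median change of all genes to -0.18, gave 115 lower and 5 higher.

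**Figure D1:**
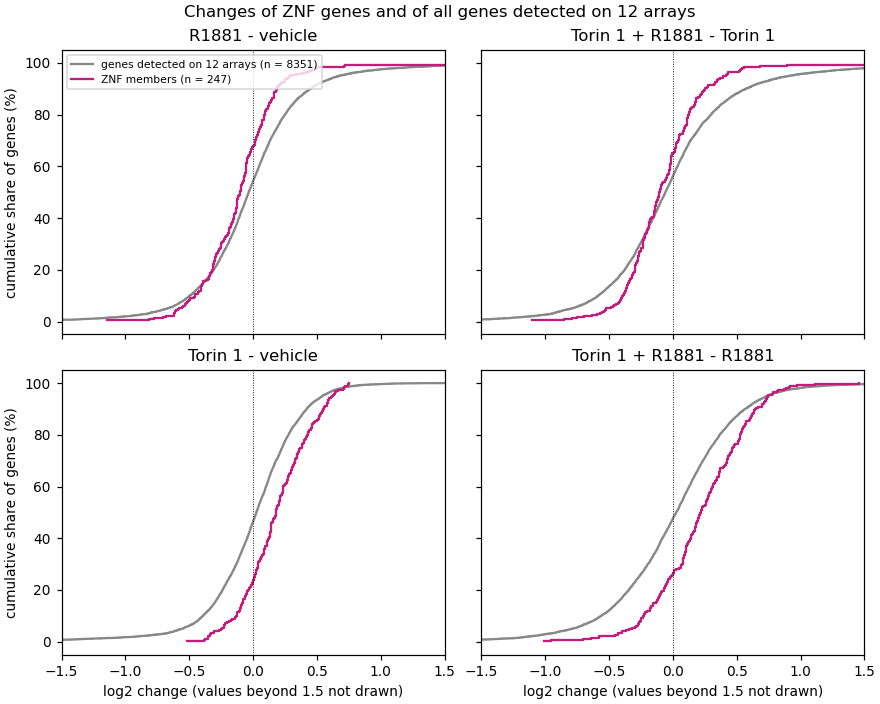
Cumulative share of genes (vertical axis, %) at or below each log2 change (horizontal axis) for the 247 ZNF members and for the 8351 genes detected on all 12 arrays, in 4 comparisons. The ZNF line lies to the right of the grey line over most of its course in both Torin 1 comparisons, with medians of 0.18 and 0.22, and to the left of it in its upper part in both R1881 comparisons, with medians of -0.10 and -0.11.

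ZNF385B, a relative of the RNA-binding protein ZNF385A, showed the largest rise with R1881. Its level was 6.49, 6.64 and 6.44 on the vehicle arrays, 8.49, 8.28 and 8.27 with R1881, 6.89, 6.78 and 6.82 with Torin 1, and 9.65, 9.86 and 9.88 with both. The groups with R1881 stood wholly above those without, and the arrays with both agents stood highest. R1881 raised it by 1.82 on the log2 scale, a 3.54-fold change (SE 0.0929, limma adjusted p = 3.34e-09). A second probe of the gene gave 1.80, while a dim probe detected on 3 arrays gave 0.14.

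ZNF18, whose protein joins a SCAN and a KRAB domain to its fingers, came next. It stood at 6.85, 6.89 and 6.81 with vehicle and at 8.50, 8.31 and 8.36 with R1881, and at 6.88, 7.14 and 6.89 with Torin 1 and 8.44, 8.57 and 8.59 with both. Its arrays fell into a low pair of groups without R1881 and a high pair with it, with no overlap between the pairs. The change with R1881 was 1.54, or 2.91-fold (SE 0.0893, limma adjusted p = 1.28e-08), and with Torin 1 present it was 1.57. The difference between these changes was 0.02 (SE 0.126, limma adjusted p = 0.925).

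The bases before 1 annotated start of each gene are shown for ZNF385B and ZNF18, which carried the largest rises with R1881. They are also shown for ZNF10 and ZNF91, a pair of KRAB genes that rose with Torin 1. They are the 200 bases upstream of the start in RefSeq GRCh38.p14, 5′ to 3′ on the gene's strand, with capitals for a cyclic AMP response element (CRE, TGACGTCA).
ZNF385B chr2:179861613-179861812, minus strand: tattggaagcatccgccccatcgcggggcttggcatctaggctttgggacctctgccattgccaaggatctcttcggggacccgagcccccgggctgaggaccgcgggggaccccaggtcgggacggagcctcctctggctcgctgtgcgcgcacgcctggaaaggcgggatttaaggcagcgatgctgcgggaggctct
ZNF18 chr17:11997476-11997675, minus strand: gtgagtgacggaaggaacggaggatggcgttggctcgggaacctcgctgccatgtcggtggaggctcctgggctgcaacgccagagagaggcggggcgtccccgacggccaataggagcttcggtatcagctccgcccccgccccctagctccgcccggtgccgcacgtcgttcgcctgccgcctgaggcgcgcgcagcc
ZNF10 chr12:133130427-133130626, plus strand: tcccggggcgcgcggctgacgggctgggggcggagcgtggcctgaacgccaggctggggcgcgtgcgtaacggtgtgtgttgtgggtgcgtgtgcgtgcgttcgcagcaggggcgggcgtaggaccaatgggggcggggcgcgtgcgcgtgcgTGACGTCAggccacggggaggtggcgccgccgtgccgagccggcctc
ZNF91 chr19:23395472-23395671, minus strand: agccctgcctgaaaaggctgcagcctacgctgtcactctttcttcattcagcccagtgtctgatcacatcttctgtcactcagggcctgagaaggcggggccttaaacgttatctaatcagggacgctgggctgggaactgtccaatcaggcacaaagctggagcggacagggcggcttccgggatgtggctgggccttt

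Over these printed bases, G and C made up 67%, 71%, 76.5% and 57%, and CG pairs numbered 17, 24, 31 and 7, in the order shown. For each gene only the first listed RefSeq promoter was used, also for the printed bases. ZNF385B had 5 listed promoters, ZNF18 2, and ZNF10 and ZNF91 1 each. Such promoters, of 250 bases before and 50 after the start, were matched for 211 of the 247 members. Their median GC content was 62% and their median count of CG pairs 23, beside 58.3% and 14 over all 27305 promoters taken in this way, 1 per gene. Those promoters were not limited to genes tested or detected here, so the gene sets are unlike. Shares over the detected genes were not taken. The full palindrome of the androgen response element, with its 3-base spacer, was searched on both strands and found in 0 of the 211 promoters and in 1 of all. The CRE, which reads the same on both strands, was in 11 of them (5.21%, beside 1.98% of all promoters), the FOXO motif GTAAACA in 3 (1.42% beside 3.41%) and the E-box CACGTG in 13 (6.16% beside 7.43%). The 56 matched promoters of members that rose with Torin 1 in both settings had a median GC content of 64.7% and the CRE in 3.57%. A match is only a run of letters, and a motif missing from these windows says nothing about a factor elsewhere.

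Of the remaining rises with R1881, ZNF14 and ZNF226, both KRAB genes of chromosome 19, were the largest. ZNF226 read 6.43, 6.23 and 6.21 with vehicle and 7.09, 7.07 and 6.84 with R1881, and 6.13, 6.18 and 6.28 with Torin 1 against 6.80, 6.81 and 7.02 with both. Each R1881 group stood above its partner without R1881, by 0.71 (SE 0.0976, limma adjusted p = 7.00e-05) and by 0.68. ZNF14 read 8.96, 8.92 and 8.85 with vehicle, 9.59, 9.70 and 9.60 with R1881, 9.44, 9.39 and 9.67 with Torin 1, and 9.26, 9.53 and 9.28 with both. Here the vehicle arrays were the low group, and each agent alone gave levels above theirs. Another probe of ZNF14, also detected on all arrays, changed by 0.08 with R1881 (limma adjusted p = 0.571), where the brightest gave 0.72.
ZNF593, a ribosome assembly factor whose yeast counterpart works on the large subunit, rose by 0.50, ZNF268 by 0.49, ZNF408 by 0.49, ZNF274 by 0.45, ZNF557 by 0.41 and ZNF682 by 0.38. ZNF274 is the KRAB protein that brings the histone methyltransferase SETDB1 to other ZNF genes. The call of ZNF682 was lost under 10 of 23 alternatives, and another probe of ZNF557, detected on all arrays, gave -0.05.

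ZNF462, a chromatin protein needed for normal face and brain development, fell furthest with R1881. Its level was 6.88, 7.20 and 6.92 with vehicle and 5.62, 5.80 and 6.13 with R1881. It was 6.82, 6.82 and 7.06 with Torin 1 and 5.88, 5.79 and 5.70 with both. The 6 arrays with R1881 all lay below the 6 without it. The change was -1.14 without Torin 1 (2.21-fold lower, SE 0.128, limma adjusted p = 1.04e-05) and -1.11 with it.

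ZNF84, a gene for a KRAB protein, read 6.41, 6.36 and 6.37 with vehicle, 5.52, 5.56 and 5.62 with R1881, 6.53, 6.77 and 6.76 with Torin 1, and 6.32, 6.34 and 6.38 with both. The R1881 arrays alone were low, and those with both agents overlapped the vehicle arrays. Its change with R1881 was -0.81 (SE 0.0792, limma adjusted p = 2.57e-06). ZNF467, known from mouse work as a regulator of the choice between fat and bone cells, read 8.60, 8.54 and 8.79 with vehicle, 7.83, 7.85 and 7.91 with R1881, 8.96, 8.83 and 8.94 with Torin 1 and 8.47, 8.39 and 8.54 with both. R1881 lowered it in both settings, with changes of -0.78 and -0.44. The other falls among the 10 largest were ZNF618 (-0.71), ZNF428 (-0.69), ZNF627 (-0.62), ZNF606 (-0.62), ZNF10 (-0.62), ZNF337 (-0.61) and ZNF184 (-0.61). The arrays of ZNF428 were scattered, at 10.36, 10.39 and 9.81 with vehicle and 9.15, 9.73 and 9.63 with R1881, and its call was lost under 4 of 23 alternatives.

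**Figure D2:**
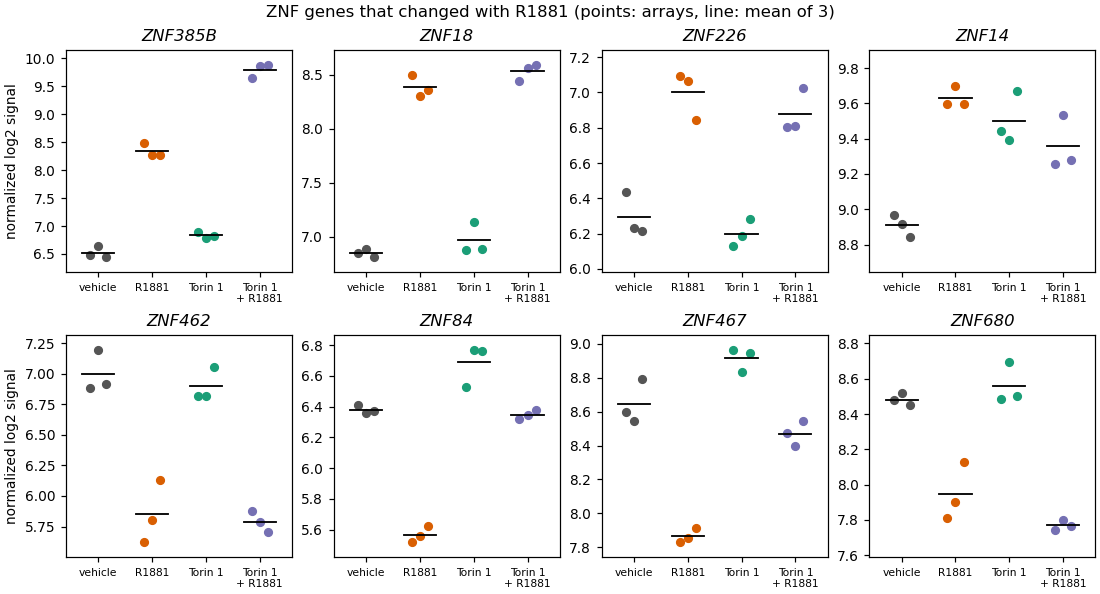
Normalized log2 signal (vertical axes, each with its own range) of 8 ZNF genes on each of the 12 arrays, by treatment group; points are arrays and lines are means of 3. ZNF385B, ZNF18 and ZNF226 stand higher in both groups with R1881 and ZNF462, ZNF467 and ZNF680 lower, ZNF14 is lowest with vehicle, and ZNF84 is lowest with R1881 alone.

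With Torin 1 present throughout, R1881 again lowered more members than it raised. Between both agents and Torin 1 alone, 55 members fell and 27 rose, beside 26.3% lower and 18.7% higher over all genes tested (29.1% and 22.1% over those detected on all arrays), with a median change of -0.11 beside -0.05. The share of members that fell, 22.3%, lay below that of all genes. Scaling each array by its median over all probes gave 93 lower and 8 higher, with the median of all genes at -0.16. Calls over all genes were not counted under that scaling. ZNF385B rose by 2.97 (7.82-fold, SE 0.0929, limma adjusted p = 1.71e-11), ZNF18 by 1.57, ZNF350 by 0.89, ZNF226 by 0.68, ZNF593 by 0.56 and ZNF615 by 0.54. The largest falls were ZNF462 (-1.11), ZNF883 (-0.85), ZNF680 (-0.79), ZNF581 (-0.75), ZNF395 (-0.70) and ZNF30 (-0.64).

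The 2 settings use different arrays, and their calls were counted together. Both calls come from a single fit that shares each gene's spread over the 4 groups, so they are not independent. R1881 raised 8 members in both (3.24%, beside 10.5% of all genes tested and 12.7% of those detected on all arrays) and lowered 33 in both (13.4%, beside 14.6% and 15.9%). The 8, named because they are few, were ZNF18, ZNF226, ZNF274, ZNF285, ZNF385B, ZNF408, ZNF585A and ZNF593, with changes of 0.22 to 1.82 without Torin 1 and of 0.37 to 2.97 with it. Another probe of ZNF585A, detected on 10 arrays, gave -0.13 and -0.06 and was not called. The further probes of ZNF226, ZNF274 and ZNF385B had positive changes in both settings. The 33 that fell changed by -1.14 to -0.26 without Torin 1 and by -1.11 to -0.20 with it. ZNF672 alone was called in opposite directions, at -0.24 without Torin 1 and 0.23 with it.

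**Figure D3:**
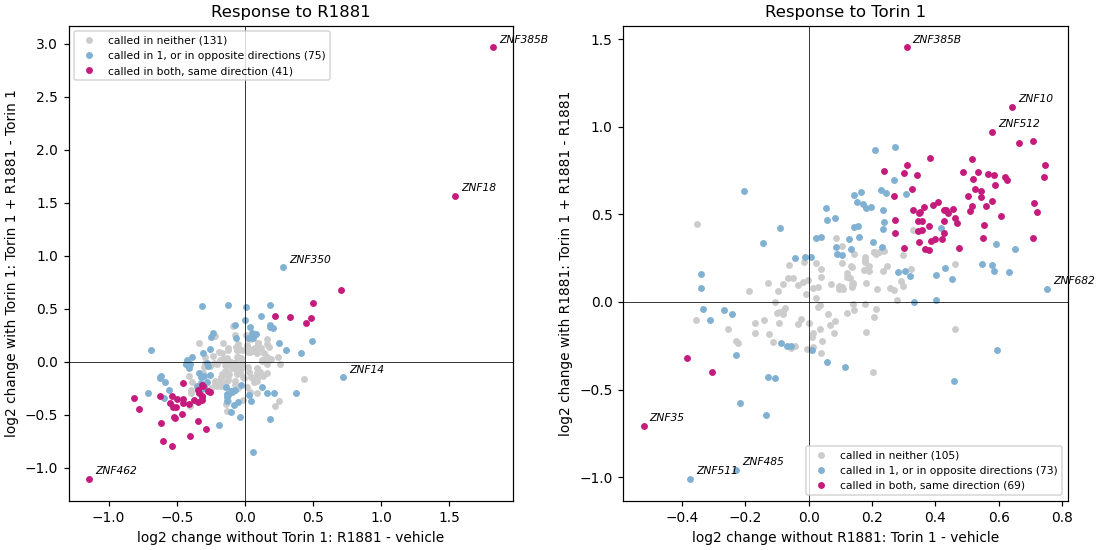
Log2 change of each of the 247 ZNF members with R1881 (left) and with Torin 1 (right), without the other agent on the horizontal axis and with it on the vertical axis; the axes of a panel share no arrays. On the left ZNF385B, ZNF18 and ZNF462 stand apart at the ends of the cloud. On the right 66 members lie in the upper right as called higher in both settings and 3 in the lower left as called lower in both.

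Torin 1 raised many more members than it lowered. Against vehicle, 83 of 247 rose and 9 fell, beside 16.2% higher and 15.7% lower over all genes tested, and 19.6% and 17.7% over the genes detected on all arrays. The members' shares were 33.6% higher and 3.64% lower, and their median change was 0.18, beside 0.02 over all genes tested. A total of 189 of the 247 members lay above 0, beside 6086 of the 11517 genes tested. Scaling each array by its median over all probes gave 38 higher and 11 lower, with the median of all genes at -0.06. Calls over all genes were not counted under that scaling. The 3 Torin 1 arrays lay wholly above the vehicle arrays for 106 of the 247 members, beside 23.7% of all genes tested. They lay wholly below for 13 of the 247, beside 21.8%. The changes were small, and those of the members ran from -0.52 to 0.75. Called rises of 1.5-fold or more numbered 19 of the 247 members, beside 374 of the 11517 genes tested (3.25%). Called falls of that size numbered 0 of the 247, beside 552 of the 11517 (4.79%). R1881 against vehicle and Torin 1 against vehicle share the 3 vehicle arrays, so their values are only set side by side.

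With R1881 present, Torin 1 moved more members. Between both agents and R1881 alone, 103 rose and 18 fell, beside 23.1% higher and 22.3% lower over all genes tested (27.5% and 25.1% over those detected on all arrays), with shares of 41.7% and 7.29% and a median change of 0.22 beside 0.01. Rises of 1.5-fold or more were called for 36 of the 247 members, beside 929 of the 11517 genes tested (8.07%). Falls of that size were called for 4 of the 247, beside 984 of the 11517 (8.54%). Torin 1 raised 66 members in both settings, 26.7% of them, beside 10.6% of all genes tested and 13.3% of those detected on all arrays. It lowered 3 in both (1.21%, beside 11% and 12.3%), namely ZNF35, ZNF480 and ZNF668. The 66 changed by 0.24 to 0.75 without R1881 (median 0.45) and by 0.30 to 1.45 with it (median 0.55). ZNF14 and ZNF883 were called higher without R1881 and lower with it. The second call of ZNF14, at -0.27, was lost under 6 of 23 alternatives, the mean of its probes among them, and its other probe gave 0.20. The call of ZNF480 with R1881 present was lost under 7 of 23.

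ZNF10, the protein whose KRAB box is widely used to build synthetic repressors, gave the second largest rise with Torin 1 in the presence of R1881. It read 6.41, 6.24 and 6.39 with vehicle, 5.64, 5.63 and 5.91 with R1881, 7.02, 6.97 and 6.97 with Torin 1, and 6.92, 6.79 and 6.82 with both. The R1881 arrays were lowest and the 6 arrays with Torin 1 lay above all others. Torin 1 raised it by 0.64 without R1881 (SE 0.088, limma adjusted p = 0.000117) and by 1.11, or 2.17-fold, with it (limma adjusted p = 3.33e-07).

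ZNF827, which brings the NuRD chromatin complex to telomeres, read 6.58, 6.62 and 6.28 with vehicle and 7.22, 7.18 and 7.20 with Torin 1, and 6.04, 6.33 and 6.35 with R1881 against 7.07, 7.20 and 7.21 with both. Both Torin 1 groups stood above both groups without it, by 0.71 (SE 0.106, limma adjusted p = 0.000233) and by 0.92. ZNF337 read 6.94, 7.11 and 7.08 with vehicle, 6.26, 6.41 and 6.62 with R1881, 7.63, 7.92 and 7.82 with Torin 1 and 7.26, 7.27 and 7.11 with both. Its highest group was Torin 1 alone and its lowest R1881 alone, and Torin 1 raised it by 0.75 and by 0.78. ZNF512 read 7.56, 7.61 and 7.52 with vehicle, 6.80, 7.04 and 7.10 with R1881, 8.07, 8.17 and 8.19 with Torin 1 and 7.99, 8.02 and 7.85 with both. The arrays with Torin 1 again all lay above those without it, by 0.58 and by 0.97.

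ZNF91, a KRAB protein that silences SVA and LINE-1 elements in primates, was more variable. Its level was 7.90, 8.26 and 7.89 with vehicle, 7.62, 7.61 and 7.94 with R1881, 8.19, 8.83 and 9.02 with Torin 1 and 8.54, 8.89 and 8.45 with both. A Torin 1 array overlapped the vehicle arrays, so the rise of 0.66 (SE 0.192, limma adjusted p = 0.0185) fell outside the rule for naming, while the rise of 0.91 with R1881 present met it. The first of these calls was lost under 5 of 23 alternatives.
Further large rises without R1881 were ZNF682 (0.75), ZNF558 (0.74), ZNF738 (0.72), ZNF581 (0.71), ZNF671 (0.71), ZNF483 (0.65) and ZNF549 (0.63). The direction of ZNF682 depended on the probe, because its other probe, also detected on all arrays, changed by -0.51 in that comparison. The other probe of ZNF549, detected on all arrays, gave 0.15 (limma adjusted p = 0.350), and those of ZNF483, detected on 6 and 5 arrays, gave 0.30 and 0.08 and were not called. Further large rises with R1881 present were ZNF385B (1.45), ZNF350 (0.88), ZNF615 (0.87), ZNF148 (0.82), ZNF606 (0.81) and ZNF337 as above.

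**Figure D4:**
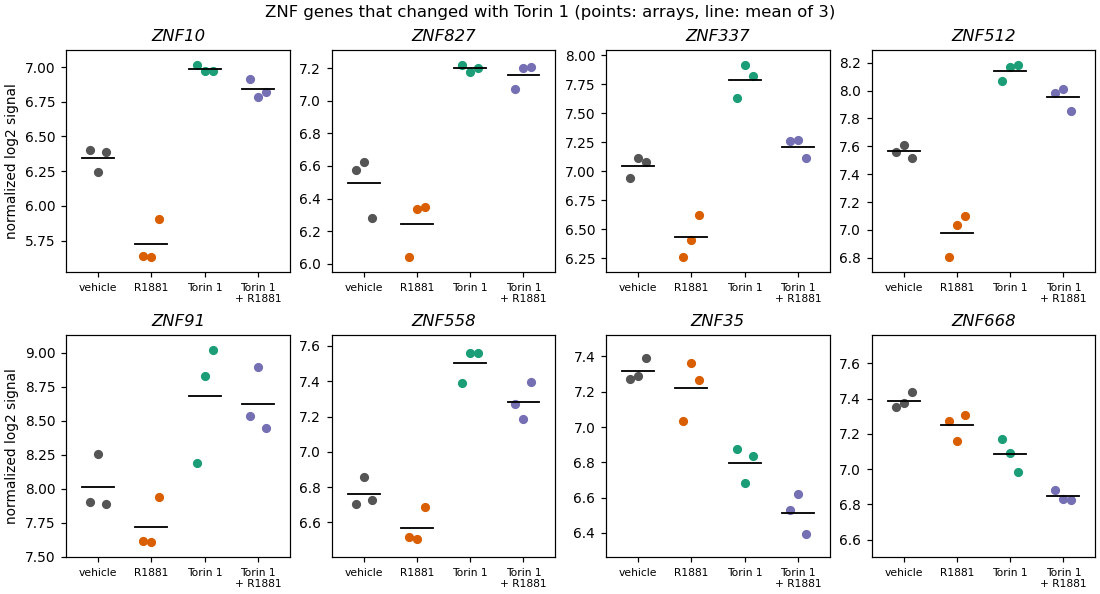
Normalized log2 signal (vertical axes, each with its own range) of 8 ZNF genes on each of the 12 arrays, by treatment group; points are arrays and lines are means of 3. In the panels of ZNF10, ZNF827, ZNF337, ZNF512, ZNF91 and ZNF558 the means of both Torin 1 groups lie above the means of their partners, and in those of ZNF35 and ZNF668 they lie below.

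The 9 members that fell with Torin 1 alone fell by little. ZNF35 read 7.27, 7.29 and 7.39 with vehicle and 6.88, 6.68 and 6.83 with Torin 1, and 7.04, 7.36 and 7.27 with R1881 against 6.53, 6.62 and 6.39 with both. Both Torin 1 groups were the low ones, with changes of -0.52 (SE 0.098, limma adjusted p = 0.00133) and -0.71. The others were ZNF480 (-0.38), ZNF28 (-0.34), ZNF664 (-0.34), ZNF562 (-0.33), ZNF585A (-0.31), ZNF668 (-0.30), ZNF583 (-0.27) and ZNF845 (-0.24). Another probe of ZNF585A, detected on 10 arrays, gave 0.17 and was not called. ZNF668 is known for a part in the DNA damage response. The calls of ZNF664, ZNF845 and ZNF583 were lost under 10, 9 and 7 of 23 alternatives.

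With R1881 present the falls reached further. ZNF511 read 9.17, 9.18 and 9.16 with R1881 and 8.08, 8.26 and 8.14 with both, a change of -1.01 (SE 0.171, limma adjusted p = 0.000297), and its vehicle and Torin 1 arrays were scattered between 8.17 and 9.19. ZNF485 read 6.56, 6.85 and 7.03 with R1881 and 5.88, 5.75 and 5.95 with both, a change of -0.96 (SE 0.107, limma adjusted p = 8.47e-06). For both genes the arrays with both agents lay wholly below those with R1881 alone. ZNF35 (-0.71), ZNF239 (-0.65), ZNF330 (-0.58), ZNF883 (-0.45), ZNF684 (-0.43), ZNF268 (-0.43), ZNF668 (-0.40) and ZNF2 (-0.37) made up the rest of the 10 largest. ZNF330 is a nucleolar protein.

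Set against vehicle, both agents together raised 83 members and lowered 30, beside 22.7% higher and 28.1% lower over all genes tested (27% and 30.4% over those detected on all arrays). The median change was 0.13, beside -0.02 over all genes. This direction turned under a single choice, the scaling of each array by its median over all probes. The members' median was then -0.13 and that of all genes -0.20, with 19 members higher and 65 lower. Calls over all genes were not counted under that scaling. In the other comparisons between groups the direction of the members' median held under all scalings tried, from -0.32 to -0.04 for R1881 against vehicle, 0.08 to 0.20 for Torin 1 against vehicle, 0.12 to 0.21 for Torin 1 with R1881 present, and -0.25 to -0.05 for R1881 with Torin 1 present.

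The members' mean level on each array needs no contrast. It lay between 6.73 and 6.76 on the vehicle arrays, between 6.62 and 6.66 with R1881, between 6.91 and 6.95 with Torin 1 and between 6.82 and 6.89 with both. The 4 groups did not overlap in this mean, while in the median member level the vehicle and R1881 arrays overlapped. The mean follows the normalization, which sets the distribution of all probes equal on every array.

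The calls with Torin 1 against vehicle were unevenly spread over levels. Among the 62 brightest members 33 rose and 1 fell against vehicle (53.2% and 1.61%), with a median change of 0.28. Among the 62 dimmest 9 rose and 2 fell (14.5% and 3.23%), with a median of 0.13. Over all genes tested, 16.2% rose and 15.7% fell. With R1881 present, 25.8%, 48.4%, 45.9% and 46.8% rose in level groups from dimmest to brightest, beside 23.1% of all genes tested. In the same order 6.45%, 8.06%, 6.56% and 8.06% fell, beside 22.3%. The median SE was 0.0883 over the brightest members and 0.117 over the dimmest. Shares of all genes by level were not taken, so this spread cannot be called particular to the members. In all, 172 members were called in at least 1 of the 4 comparisons of a single agent and 75 in none of them. The same count was not made over all genes tested, so these numbers describe only the members.

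Regulators without a KRAB box were compared as a list, chosen with earlier results of these data known. Of 18 tested, 15 of them members, 9 rose and 0 fell with Torin 1, beside 16.2% and 15.7% of all genes tested, and 10 rose and 0 fell with Torin 1 when R1881 was present, beside 23.1% and 22.3%. With R1881, 0 rose and 7 fell, beside 15.8% and 21.5%, and with Torin 1 present 0 rose and 5 fell, beside 18.7% and 26.3%. Their median changes were 0.27, 0.38, -0.18 and -0.08 in that order, beside 0.02, 0.01, -0.03 and -0.05 over all genes tested.

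ZNF219, a partner of SOX9 in cartilage in mouse work, read 5.48, 5.86 and 5.55 with vehicle, 5.34, 4.91 and 5.15 with R1881, 6.16, 6.26 and 6.23 with Torin 1 and 6.01, 5.82 and 5.75 with both. It was lowest with R1881 and highest with Torin 1, with changes of -0.50 and 0.58 against vehicle. ZNF644, which brings the methyltransferases G9a and GLP to DNA, rose with Torin 1 by 0.52 without R1881 and by 0.55 with it (another probe gave 0.18 and 0.20, not called), while its change with R1881 was -0.16 (limma adjusted p = 0.166). ZNF217, an oncogene amplified in breast cancer, rose by 0.35 and 0.40 with Torin 1. ZNF148, which binds GC-rich promoters, rose by 0.38 and 0.82 with Torin 1 and fell with R1881 (-0.42), and the call at 0.38 was lost under 4 of 23 alternatives. ZNF143, a promoter factor of many housekeeping genes, was called in none of the 4, with changes of 0.07 to 0.10.

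Of 10 tested KRAB repressors with a described target, 9 of them members, 5 rose and 0 fell with Torin 1, beside 16.2% and 15.7% of all genes tested. With R1881 present 6 rose and 1 fell, beside 23.1% and 22.3%. ZNF263, a SCAN and KRAB protein, read 7.96, 8.10 and 8.08 with vehicle and 8.47, 8.68 and 8.64 with Torin 1, and 7.89, 7.97 and 8.12 with R1881 against 8.13, 8.30 and 8.21 with both. It rose without R1881 (0.55, limma adjusted p = 0.000449), and its change with R1881 present was 0.22 (limma adjusted p = 0.0599). ZNF331, an imprinted gene, rose by 0.34 and 0.72. The first of these calls was lost under 6 of 23 alternatives, and another probe detected on all arrays gave -0.20 there and 0.72 in the second setting. R1881 raised ZNF268 and ZNF274 and lowered ZNF10 and ZNF331.

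Of 26 tested partners of TRIM28 in KRAB repression, 3 rose and 6 fell with Torin 1 (11.5% and 23.1%, beside 16.2% and 15.7% of all genes tested). With R1881, 3 rose and 9 fell (11.5% and 34.6%, beside 15.8% and 21.5%). TRIM28 itself changed by 0.16 with Torin 1 (SE 0.0908, limma adjusted p = 0.216). SETDB1 rose by 0.70, while UHRF1, which guides DNA methylation after replication, fell by 2.37, SUV39H1 by 1.02, DNMT1 by 0.84 and CBX5 by 0.71.

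Of 12 tested proteins that work on RNA or ribosomes, 9 of them members, 2 rose and 0 fell with Torin 1 (16.7% and 0%, beside 16.2% and 15.7% of all genes tested). With R1881, 2 rose and 1 fell (16.7% and 8.33%, beside 15.8% and 21.5%). ZNF593 read 7.50, 7.48 and 7.52 with vehicle, 7.87, 8.21 and 7.92 with R1881, 7.54, 7.43 and 7.50 with Torin 1 and 8.08, 8.23 and 7.82 with both. Both groups with R1881 were higher, and its change with Torin 1 alone was -0.01 (SE 0.110, limma adjusted p = 0.962). ZNF622, which matures the large ribosomal subunit, rose by 0.25 with R1881, a call lost under 5 of 23 alternatives. ZNF598, the ubiquitin ligase of collided ribosomes, was called in none of the 4 single-agent comparisons.

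Chromosome 19 holds 113 members (45.7%). With Torin 1, 41 of the 113 rose and 6 fell (median change 0.18), and of the 134 on other chromosomes 42 rose and 3 fell (median 0.18), beside 16.2% and 15.7% of all genes tested. With R1881, 8 rose and 26 fell on chromosome 19 and 6 rose and 36 fell elsewhere, with medians of -0.10 in both. The shares that fell, 23% and 26.9%, were near the 21.5% of all genes tested. Those that rose, 7.08% and 4.48%, lay below the 15.8% of all genes tested. These medians are descriptions, and no difference between the sets was tested.

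Members of chromosome 19 were split where a gap of over 1 Mb lay between neighbours. With Torin 1, 16.2% of all genes tested rose and 15.7% fell, and of all members 33.6% rose and 3.64% fell. The largest cluster, the 32 members from ZNF524 to ZNF446, held 14 that rose and 1 that fell with Torin 1 (median change 0.26). In the 23 from ZNF175 to ZNF331, 6 rose and 3 fell (median 0.04), and in the 11 from ZNF576 to ZNF296, 1 rose and 0 fell (median 0.06). The 6 from ZNF14 to ZNF429, picked out after their values were seen, held 5 that rose, with a median of 0.59. But with R1881 present 1 of them rose and 1 fell (median 0.10), beside 23.1% and 22.3% of all genes tested. For Torin 1 against vehicle, other probes of ZNF14, ZNF430 and ZNF682 gave 0.25, 0.08 and -0.51. Only that of ZNF682 was called, against the direction of its brightest probe. Neighbours in such clusters are near copies of each other, so a probe may read more than its own gene, which was not tested.

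**Figure D5:**
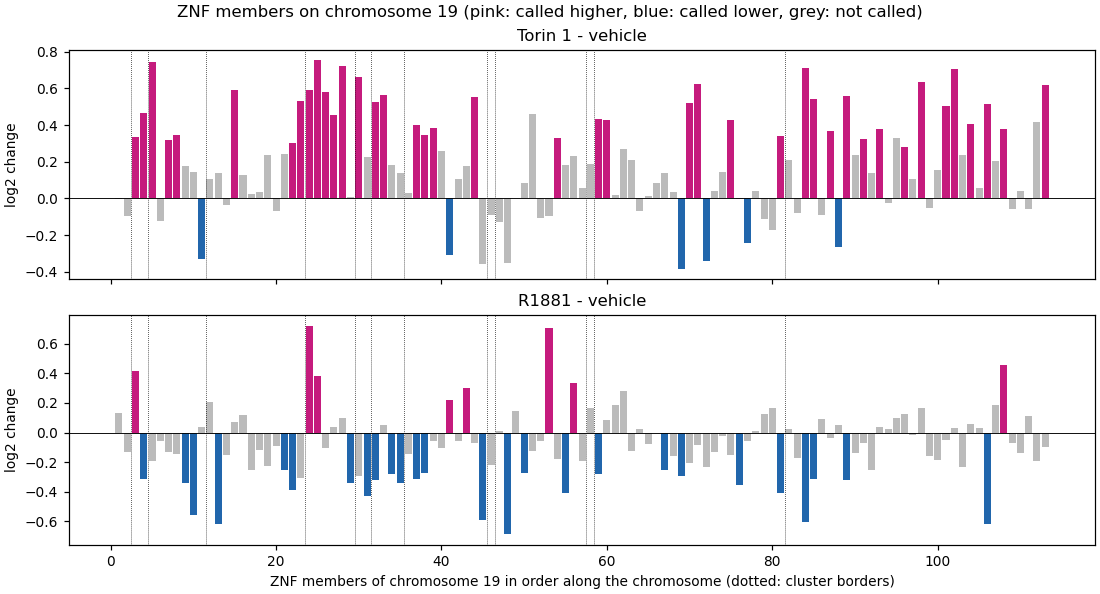
Log2 change (vertical axes) of the 113 ZNF members of chromosome 19 in their order along the chromosome (horizontal axis), with Torin 1 (upper panel) and with R1881 (lower panel), both against vehicle; pink bars were called higher, blue bars lower and grey bars neither, and dotted lines mark cluster borders. With Torin 1, 41 bars are pink and 6 blue; with R1881, 8 are pink and 26 blue.

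Other probes of the same genes gave a partial check of the calls. For 63 members 75 further probes were kept. Where the member was called, the further probe had the same sign in 30 of 38 cases with Torin 1, 31 of 37 with Torin 1 when R1881 was present, and 19 of 25 in each R1881 comparison. It was itself called in that direction in fewer cases, 7 of 38, 15 of 37, 11 of 25 without Torin 1 and 8 of 25 with it. ZNF682 with Torin 1 and ZNF667 with Torin 1 in the presence of R1881 were called in opposite directions by another probe. For ZNF280D, 1 of its other probes, detected on all arrays, gave 0.03 where the brightest gave 0.75 for Torin 1 in the presence of R1881, and another gave 0.72.

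Related families named for other domains were measured beside the ZNF genes. Of 24 ZBTB genes, which join a BTB domain to their fingers, 8 rose and 1 fell with Torin 1, beside 16.2% and 15.7% of all genes tested, and 12 rose and 0 fell with R1881 present, beside 23.1% and 22.3%. Their median changes were 0.15 and 0.29. Of 8 ZFP genes 3 rose and 1 fell with Torin 1, of 6 ZSCAN genes 0 rose and 0 fell, and of 5 ZKSCAN genes 1 rose and 0 fell. With R1881 present the ZSCAN genes had 4 rises and 0 falls. These families are small, and their difference from the ZNF genes was not tested.

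The response to R1881 differed with Torin 1 for 20 members by the interaction term of the limma fit. It was higher, or less negative, with Torin 1 for 13 and lower for 7, beside 7.87% and 7.08% of all genes tested and 8.89% and 8.14% of those detected on all arrays, and the members' own shares were 5.26% and 2.83%. ZNF385B had the largest of these terms at 1.14 (SE 0.131, limma adjusted p = 7.90e-05), with a second probe at 1.34. For ZNF350, known as the BRCA1 partner ZBRK1, the levels were 5.41, 5.49 and 5.80 with vehicle, 5.97, 5.70 and 5.86 with R1881, 5.67, 6.05 and 5.78 with Torin 1 and 6.64, 6.74 and 6.80 with both. Only the arrays with both agents stood clear of the rest.

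ZNF615 also stood highest with both agents, at 7.29, 7.52 and 7.49 with vehicle, 7.17, 7.42 and 7.34 with R1881, 7.62, 7.70 and 7.60 with Torin 1 and 8.14, 8.14 and 8.24 with both. The Torin 1 arrays lay above the vehicle arrays as well, and the R1881 and vehicle arrays overlapped. Its interaction term was 0.66 (SE 0.125, limma adjusted p = 0.00333). ZNF883 went the other way, at 6.52, 6.37 and 6.58 with vehicle, 6.53, 6.44 and 6.68 with R1881, 6.86, 6.94 and 7.04 with Torin 1 and 6.004, 6.22 and 6.06 with both. It was highest with Torin 1 alone and lowest with both agents, and its term was -0.91 (SE 0.133, limma adjusted p = 0.000581). Leaving out replicate 2 of the group with both agents gave 8 members with a higher call, and calls over all genes were not counted there.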

How the data were processed

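Per the file headers, the deposited table gives a signal intensity and a detection p-value for each of 47323 probes on 12 Illumina HumanHT-12 V4 arrays. The intensity is not normalized. The authors also deposited a processed table on the log2 scale, used only as an alternative. For that table the normalization, and for all arrays the slide and scan batches, are not given in the sources used here.

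Intensities were background-corrected with normexp from the detection p-values (offset 16), put on the log2 scale and quantile normalized with limma 3.58.1 in R 4.3.3. Probes with detection p under 0.05 on at least 3 arrays were kept (20413). Of these 15137 had 1 gene symbol in the platform annotation, 5274 had none and 2 had several. The brightest probe stood for each of 11517 genes, except that ZNF436 was read through its probe detected on all arrays. A single limma fit of 4 group means gave each comparison, with Benjamini-Hochberg adjustment over all genes. The fit was checked on simulated data. Same-numbered samples did not deviate together (mean correlation of residuals -0.00325, lowest -0.136), so numbers were not used as a block.

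Named genes are the members with the largest called changes whose arrays did not overlap (10 each way per comparison, 6 for R1881 with Torin 1 present), the 6 largest interaction terms each way, the brightest and dimmest 5, those nearest the threshold, and members of role lists. The members and lists were chosen with earlier results of these data known. A planned split by protein sequence was not made. With 3 arrays against 3, an exact permutation test of 1 gene cannot give a two-sided p below 0.1.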

Additional observations from a re-analysis of the deposited data

Results flagged for a closer look

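The R1881 response of 20 members differed between cells with and without Torin 1 by the interaction term of the limma fit, at an adjusted p under 0.05. Called positive terms made up 5.26% of the members, beside 7.87% of all genes tested, and called negative terms 2.83% beside 7.08%. The values below are the log2 response with Torin 1 less that without. Positive terms were 1.14 for ZNF385B, 0.84 for ZNF503, 0.66 for ZNF615, 0.61 for ZNF350, 0.51 for ZNF280D, 0.50 for ZNF28, 0.48 for ZNF672, 0.47 for ZNF10, 0.47 for ZNF84, 0.47 for ZNF627, 0.46 for ZNF189, 0.44 for ZNF490 and 0.39 for ZNF213. Negative terms were -0.91 for ZNF883, -0.87 for ZNF14, -0.73 for ZNF485, -0.68 for ZNF682, -0.51 for ZNF239, -0.49 for ZNF2 and -0.40 for ZNF296. The calls of ZNF490, ZNF2, ZNF189, ZNF28 and ZNF682 were the least stable, lost under 16, 15, 14, 13 and 10 of 22 alternatives. Other probes detected on all arrays gave interaction terms of -0.05 for ZNF14, -0.0049 for ZNF682, and 0.03 and 0.31 for ZNF280D. None of these was called. Of 9 further probes of members with a called term, 4 were called in the same direction and 0 in the opposite one.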

How the results depend on the processing

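Scaling each array by its median over all probes moved counts by over 1.5 times: R1881 against vehicle gave 5 higher and 115 lower, Torin 1 against vehicle 38 higher, R1881 with Torin 1 present 8 higher and 93 lower, both agents against vehicle 19 higher and 65 lower, and the interaction 4 higher and 2 lower. It also moved the median of all genes to -0.18, -0.06, -0.16 and -0.20 in the first 4 of these. With that median taken over probes detected on all 12 arrays, an alternative chosen after seeing the data, the counts were 20 and 51 for R1881 against vehicle and 88 and 8 for Torin 1 against vehicle. Leaving out an array gave 9 to 16 members higher with R1881 and 8 to 14 with a positive interaction. With the replicate number as a block, 12 members rose and 61 fell with R1881, and 81 rose and 8 fell with Torin 1. Of 83 named results 60 kept their call under all alternatives run, 23 lost it under at least 1, and 0 reversed. The cause of these shifts was not tested. Calls over all genes were not counted under the alternatives, so the alternative counts describe only the members. Probe signal close to background limits what can be read from the dimmest members.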
